A study of Homo sapiens with 18 samples.

Results

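The effect of the BET inhibitor OTX015 was measured in MOLM13 cells that also received the Menin inhibitor VTP50469, by setting the 2 libraries labelled MOLM13 VTP + OTX against the 2 labelled MOLM13 VTP, 4 of the 18 libraries of the series. MOLM13 is a human acute myeloid leukemia (AML) cell line that carries the MLL-AF9 fusion gene and an internal tandem duplication in FLT3. The cells grew in RPMI medium with 20% fetal bovine serum, and treatments lasted 16 h. The VTP group received 500 nM VTP50469, an agent that the study calls SNDX-50469, and the VTP + OTX group received 500 nM VTP50469 together with 500 nM OTX015. For the effect of OTX015 without the Menin inhibitor, the 2 libraries of the OTX group (500 nM OTX015) were set against the 2 of the control group. The labels give no vehicle for the control and no order in which the agents were added. All 8 libraries come from 1 cell line, which holds no other cells of the marrow, and the study describes its MOLM13 samples as biologic replicates.

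BET proteins, such as BRD2 and BRD3, bind acetylated lysines on histones through their bromodomains and recruit the elongation kinase P-TEFb to promoters and enhancers, and OTX015 competes for those bromodomains. Menin, the product of MEN1, tethers the MLL protein and its fusions to chromatin, and VTP50469 blocks the contact between Menin and MLL. MLL fusions keep the homeobox genes of the HOXA cluster and their partners MEIS1 and PBX3 active in leukemia cells, and BET proteins act at many enhancers of the same cells, MYC among their best known targets. The comparison asked which transcripts the BET inhibitor changed in cells whose Menin-MLL contact was inhibited as well.

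The MOLM13 libraries held between 19320216 and 23684811 counts. Values are given for each library as CPM, its counts scaled to a common library size after correction for composition, and changes as log2 fold changes with their standard error. The verbs rose and fell are kept for genes whose Benjamini-Hochberg adjusted p in edgeR's quasi-likelihood test was below 0.05 with a 1.25-fold or larger change, so that a small change can fail on its size alone. Beyond counting error, the common coefficient of variation between libraries of a group was 3.06%. The p-values rest on a spread of that size, and whether it holds between cultures grown apart was not tested. The myeloid markers were present, with a summed level of 1759 to 1768 CPM in VTP and 1313 to 1322 CPM in VTP + OTX over 10 genes, of which CSF2RA was listed at 0 in every MOLM13 library. The 14 lymphoid markers summed to 48.5 to 49.1 CPM in VTP and 20.5 to 20.7 CPM in VTP + OTX, most of it NKG7 and CD3D. Sums were 33.6 to 34.9 and 41.5 to 44.5 CPM for the 13 erythroid and megakaryocyte markers, nearly all EPOR, and 1.10 to 1.40 and 2.48 to 3.28 CPM for the 11 epithelial and stromal markers. Some markers of these cells were at 0 in both groups, among them KLRD1 of natural killer cells, HBA2 of red cells, PF4 of platelets and KRT19 and COL3A1 of epithelium and stroma. Others were not. Of 5 tested lymphoid markers 3 fell and 1 rose, and CD79B held 2 counts in VTP and 30 in VTP + OTX. EPOR (0.33), the 1 tested erythroid and megakaryocyte marker, and the 1 tested epithelial and stromal marker (1.53) rose. Mitochondrial transcripts took 4.98% and 5.50% of the counts in the VTP libraries and 5.74% and 6.01% in the VTP + OTX libraries, and the part of these differences in the results was not tested. In bulk RNA, fewer cells of a state and less RNA per cell cannot be told apart.

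Adding OTX015 changed a majority of the expressed genes. Of 14360 genes tested, 8183 (57%) passed, 4012 of them higher (27.9%) and 4171 lower (29%) in VTP + OTX than in VTP. The median absolute log2 fold change was 0.50, and 3238 genes (22.6%) differed by more than 1 on the log2 scale, 1515 upward and 1723 downward. Counts of list members below are to be read against these shares, since a list with about 28% of its members higher and 29% lower does not stand apart from the rest. Levels are relative to the rest of each library, so a shift shared by most genes would not show in these shares.

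**Figure D1:**
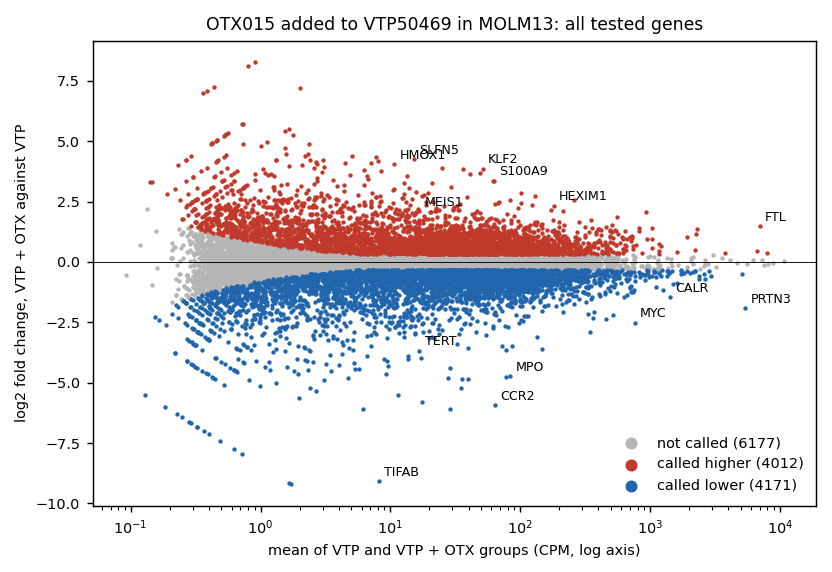
Log2 fold change of VTP + OTX against VTP (vertical axis) for all 14360 tested genes by the mean level of the 2 groups in CPM (horizontal log axis), with 4012 genes called higher in red, 4171 called lower in blue and the others in grey. MYC, MPO, CCR2 and TIFAB lie in the lower part and HEXIM1, KLF2, S100A9 and FTL in the upper part, and calls occur at every level of expression.

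Genes that report BET inhibition in many cell types moved strongly. HEXIM1, which holds P-TEFb in an inactive complex, was at 59.8 and 60.3 CPM in the VTP libraries and 317 and 288 CPM in the VTP + OTX libraries. Both VTP + OTX libraries were above both VTP libraries, and the log2 fold change was 2.33 ± 0.05, adjusted p = 2.1e-47. BRD2 rose from 396 and 406 to 856 and 792 CPM (1.04 ± 0.04), and SAT1, an enzyme of polyamine breakdown, rose from 23.4 and 26.3 to 180.1 and 178 CPM (2.85 ± 0.06). SERPINI1 (3.43 ± 0.18), which encodes the serine protease inhibitor neuroserpin, rose as well. In all, 10 of 10 such markers were higher, 4 of which are canonical histone genes taken up again below. Of 8 markers known to fall, 6 were lower. The chemokine receptor gene CCR2 (chromosome 3, 46354111 to 46360940) was at 127 and 123 CPM in the VTP libraries and 1.72 and 2.34 CPM in the VTP + OTX libraries, with no overlap between the groups and a log2 fold change of -5.93 ± 0.10, adjusted p = 9.9e-53. The interleukin 7 receptor gene IL7R (-4.30 ± 0.18), CD180 (-2.80 ± 0.09), a Toll-like receptor homologue, and the chromatin reader gene ZMYND8 (-1.57 ± 0.08) fell too. MYB was at 410.4 and 394 CPM in the VTP libraries and 404 and 414 CPM in the VTP + OTX libraries, a log2 fold change of 0.03 ± 0.04 that did not pass, and the cell cycle kinase gene CDK6 (-0.28 ± 0.04) did not pass either, although it did, at -0.33, without VTP replicate 2.

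Genes of the machinery that the 2 agents act on changed in part. BRD3 (0.43 ± 0.05) rose, as did the P-TEFb kinase gene CDK9 (0.44 ± 0.05) and the super elongation complex genes AFF1 (1.29 ± 0.05), AFF4 (1.14 ± 0.07) and ELL2 (2.25 ± 0.19). The P-TEFb cyclin gene CCNT1 was at -0.14 ± 0.06 and did not pass. Of 25 genes of BET readers, P-TEFb and elongation factors, 9 rose and 2 fell, the latter the NELF subunit genes NELFCD (-0.74 ± 0.05) and NELFA (-0.37 ± 0.06), of which NELFA was at -0.30 and no longer passed without VTP + OTX replicate 2. Among 15 genes of Menin, MLL and acetyltransferases, MEN1 itself was at 136 and 143 CPM in the VTP libraries and 95.5 and 92.2 CPM in the VTP + OTX libraries. It fell by 0.57 on the log2 scale (adjusted p = 6.6e-17), and the MLL complex subunit gene WDR5 (-0.64 ± 0.05) and the acetyltransferase gene KAT2A (-1.86 ± 0.06), which encodes GCN5, fell with it. The acetyltransferase genes EP300 (0.86 ± 0.04), CREBBP (0.74 ± 0.05) and KAT6A (0.62 ± 0.04) and PSIP1 (0.82 ± 0.05), which encodes the MLL partner LEDGF, rose, whereas KMT2A (0.18 ± 0.05), which encodes MLL, did not pass.

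The study named 20 genes for this combination, and since it chose them on these samples their counts are not independent evidence. All 13 that it named as lower were lower and all 7 named as higher were higher. TERT, the catalytic subunit of telomerase (chromosome 5, 1253167 to 1295068), was at 29.9 and 32.2 CPM in the VTP libraries and 2.48 and 2.39 CPM in the VTP + OTX libraries. The groups did not overlap and the log2 fold change was -3.67 ± 0.12, adjusted p = 1.3e-36. BCL2, whose product blocks mitochondrial apoptosis, was at 153 and 149 CPM in the VTP libraries and 61.9 and 70.1 CPM in the VTP + OTX libraries (-1.19 ± 0.05), the folate transporter gene SLC19A1 at 139.5 and 138 and 43.8 and 42.6 CPM (-1.68 ± 0.05), and the progenitor transcription factor gene GATA2 at 56.3 and 56.4 and 23.6 and 23.1 CPM (-1.27 ± 0.07). Of the 7 higher genes, CDKN1A, which encodes the cell cycle inhibitor p21, rose from 114 and 122 to 287 and 264 CPM (1.22 ± 0.04), and BCL2L11, which encodes the death activator BIM, rose from 46.9 and 45.4 to 106 and 100.4 CPM (1.16 ± 0.06). CLEC12A, a surface lectin of myeloid and leukemic stem cells, held 159 counts in the 2 VTP libraries and 0 in the 2 VTP + OTX libraries, which is at least 47.1-fold lower against a floor of 3 counts over the group. CD93 was near the limit of detection, at 0.880 and 0.550 CPM in VTP and 0.253 and 0.140 CPM in VTP + OTX, and its fall (-1.84 ± 0.58) no longer passed without VTP replicate 1 (adjusted p = 0.095) or without VTP + OTX replicate 2 (adjusted p = 0.078) in the quasi-likelihood test.

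**Figure D2:**
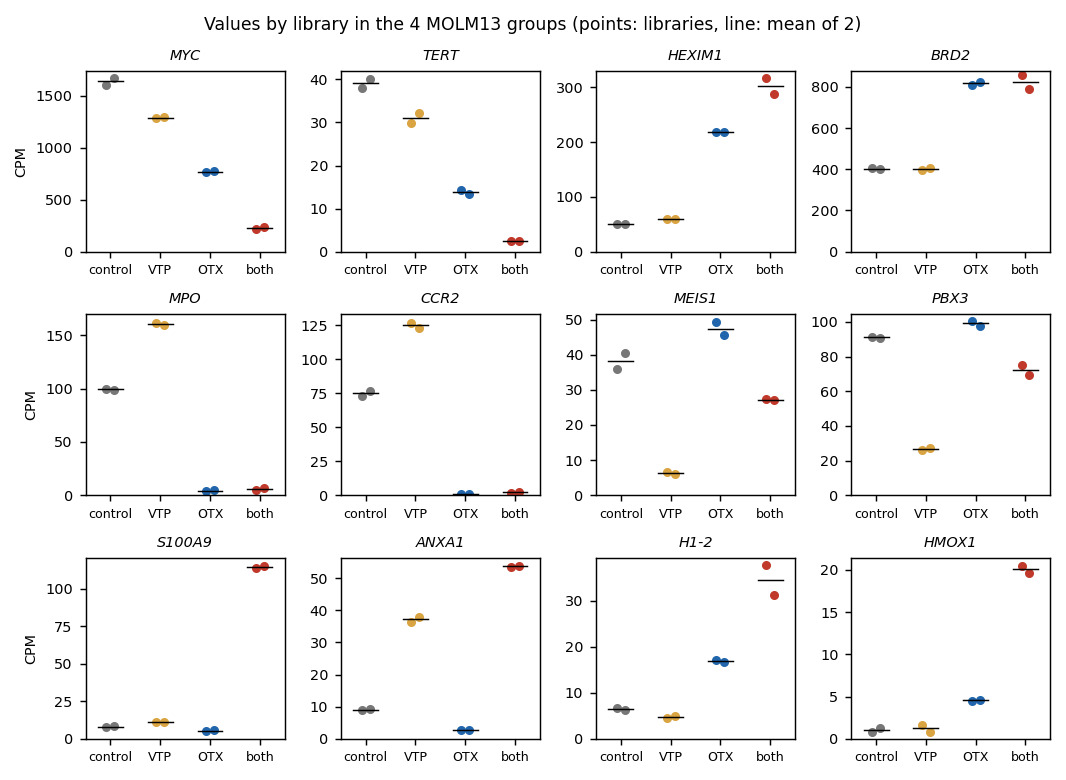
CPM of 12 genes (vertical axes, linear from 0) in the 2 libraries of each MOLM13 group, where points are libraries, lines are the mean of 2 and "both" is VTP + OTX. MYC and TERT are lowest with both agents, HEXIM1 and BRD2 are high in both groups with OTX015, MEIS1 and PBX3 are lowest with VTP alone, and S100A9 stands out with both agents.

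MYC and most of the genes that build ribosomes, which MYC is known to drive, fell. MYC was at 1287 and 1296 CPM in the VTP libraries and 218 and 234 CPM in the VTP + OTX libraries. Both VTP + OTX libraries were far below both VTP libraries, and the log2 fold change was -2.51 ± 0.04, adjusted p = 9.9e-54. Of 44 genes of MYC and ribosome biogenesis, 39 fell and 2 rose, with a median log2 fold change of -1.12 against -0.02 over all genes tested. The spermidine synthase gene SRM was at 339 and 350.4 CPM in the VTP libraries and 80.2 and 84.6 CPM in the VTP + OTX libraries (-2.06 ± 0.04). The nucleolar genes NOP16 (-2.00 ± 0.07), WDR12 (-1.65 ± 0.06) and MRTO4 (-1.56 ± 0.05), which act in assembly of the large subunit, and FBL (-1.34 ± 0.04), the methyltransferase of box C/D snoRNPs, fell in the same way. So did the abundant nucleolar genes NPM1, from 1510 and 1470 to 713 and 753 CPM (-1.02 ± 0.04), and NCL, from 2099 and 2107 to 1123 and 1152 CPM (-0.89 ± 0.04). The largest subunits of RNA polymerase I, POLR1A (-1.05 ± 0.05) and POLR1B (-1.20 ± 0.05), which transcribes ribosomal RNA, fell by about the list's median. MXD1 (0.68 ± 0.07) and MXD3 (1.40 ± 0.08), whose products compete with MYC for its partner MAX, were the 2 members that rose. MAX itself fell (-0.55 ± 0.06), while MNT (0.10 ± 0.07), MXI1 (-0.03 ± 0.06) and RRN3 (-0.31 ± 0.06) did not pass.

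MYC and MAX bind the E-box CACGTG, so the promoters of these genes were searched for those letters. The windows were RefSeq promoters on GRCh38.p14 from 250 bases before to 50 bases after each gene's start, searched on both strands, the motif being its own reverse complement. Of the 44 list members, 39 had a window and 17 of those (43.6%) held CACGTG, against 2396 of 27305 genes with a window (8.77%). Of the 17 genes, 16 were lower in VTP + OTX and MNT was not called, which describes the letters and does not show binding. In the whole list, with or without the letters, 39 of 44 (88.6%) were lower, a similar share. The stretches before the start of 3 genes are shown because each holds the motif wholly upstream of a gene that fell. SRM makes spermidine, IMP4 is a U3 snoRNP protein and UTP20 a factor of the small subunit processome. They lie on the minus strand of chr1:11060162-11060267 (SRM), the plus strand of chr2:130342647-130342749 (IMP4) and the plus strand of chr12:101280045-101280104 (UTP20), with the E-box in capitals, beginning 199, 203 and 10 bases before the start.
SRM: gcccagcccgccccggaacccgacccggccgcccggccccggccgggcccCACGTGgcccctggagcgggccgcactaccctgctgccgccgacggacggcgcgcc
IMP4: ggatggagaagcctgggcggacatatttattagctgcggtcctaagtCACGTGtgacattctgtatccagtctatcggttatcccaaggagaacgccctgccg
UTP20: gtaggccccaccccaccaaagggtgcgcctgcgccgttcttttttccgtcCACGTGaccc

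IMP4 was at 144 and 142 CPM in the VTP libraries and 59.4 and 60.02 CPM in the VTP + OTX libraries (-1.26 ± 0.05), and UTP20 at 88.8 and 82.6 and 37.8 and 37.2 CPM (-1.19 ± 0.06). Both were lower in each VTP + OTX library than in either VTP library, and without the Menin inhibitor UTP20 was at 0.04 on the log2 scale, which did not pass.

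Translation and its supply moved with ribosome assembly. Of 60 cytosolic ribosomal protein genes, 46 fell and 0 rose, with a smaller median of -0.45, and the most abundant of those that fell, RPL8, went from 5963 and 5985 to 4322 and 4200 CPM (-0.49 ± 0.03). Of 38 tested translation factors, 25 fell and 1 rose. The factor genes EIF4B (-1.30 ± 0.04), EIF5A (-1.32 ± 0.04) and EIF4EBP1 (-1.56 ± 0.04) fell most. They encode a helper of the helicase eIF4A, the factor that carries the spermidine-derived residue hypusine, and an inhibitor of cap-dependent initiation. The elongation factor genes EEF1A1 (-0.08 ± 0.03) and EEF2 (-0.05 ± 0.03), at over 7000 CPM in every library of both groups, did not pass. Of 13 polyamine genes, 6 fell and 3 rose, the former with ODC1 (-0.93 ± 0.04) and AMD1 (-0.60 ± 0.05) of synthesis and the latter with SAT1 and SMOX (0.71 ± 0.09) of breakdown.

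Nucleotide and folate enzymes followed. Of 24 genes, 17 fell and 4 rose. The mitochondrial folate enzyme gene MTHFD1L was at 182 and 182 CPM in the VTP libraries and 37.1 and 39.1 CPM in the VTP + OTX libraries (-2.26 ± 0.05), and the purine enzymes PFAS (-1.81 ± 0.05) and PAICS (-1.53 ± 0.04) and the pyrimidine enzyme CAD (-1.42 ± 0.04) fell by over 1 on the log2 scale. Those that rose included RRM2 (1.33 ± 0.04) and TK1 (1.08 ± 0.05), which supply deoxynucleotides, and the folate enzyme gene SHMT1 (0.44 ± 0.06).

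ATF4, the transcription factor that drives amino acid supply under stress, fell together with most genes of its list. ATF4 was at 433 and 431 CPM in the VTP libraries and 185 and 179 CPM in the VTP + OTX libraries. The groups did not overlap, and the log2 fold change was -1.25 ± 0.04, adjusted p = 3.3e-37. Of 29 genes of ATF4 and amino acid supply, 22 fell and 4 rose. PYCR1 of proline synthesis (-2.73 ± 0.07), PSAT1 of serine synthesis (-2.25 ± 0.05), the leucine transporter gene SLC7A5 (-2.08 ± 0.04) and the glutathione-degrading enzyme gene CHAC1 (-3.01 ± 0.29) were among the larger falls, while CEBPB (1.12 ± 0.07) and the transporter genes SLC38A2 (0.91 ± 0.05) and SLC1A4 (0.48 ± 0.04) rose with ATF5 (0.46 ± 0.06). In the promoter windows, the letters TTGCATCA of the amino acid response element, read on both strands, occurred in 5 of the 24 list genes with a window (20.8%) and in 295 of 27305 genes (1.08%). Of the 5, AARS1, CHAC1, MARS1 and SLC1A5 were lower and SLC1A4 was higher. The stretches of CHAC1 and of the glutamine transporter gene SLC1A5 (-0.69 ± 0.04) are printed because the motif stands before the start of both. They are chr15:40953221-40953319 on the plus strand and chr19:46784854-46784961 on the minus strand, with the match in capitals, in SLC1A5 as its reverse complement.
CHAC1: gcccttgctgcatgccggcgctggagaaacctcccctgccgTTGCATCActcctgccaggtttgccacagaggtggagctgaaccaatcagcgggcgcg
SLC1A5: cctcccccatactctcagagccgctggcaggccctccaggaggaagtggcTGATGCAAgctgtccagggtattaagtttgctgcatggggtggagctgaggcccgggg

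Secretory chaperones and energy metabolism were lower as well. Of 23 unfolded protein response genes, 13 fell and 4 rose. The calcium-binding chaperone gene CALR went from 2068 and 2075 to 750.5 and 752 CPM (-1.46 ± 0.04) and HSPA5, which encodes BiP, from 1051 and 1018 to 433 and 444 CPM (-1.24 ± 0.04), whereas the stress sensor gene ERN1 rose (0.77 ± 0.10) and DDIT3 (-0.29 ± 0.19) and XBP1 (-0.03 ± 0.04) did not pass. Of 41 nuclear genes of oxidative phosphorylation, 30 fell and 1 rose, led by the ATP synthase subunit gene ATP5MC1 (-2.07 ± 0.06) and the cytochrome c gene CYCS (-1.16 ± 0.05). The 13 transcripts of the mitochondrial genome did not follow: 0 fell and 2 rose, MT-CYB (0.37 ± 0.04) and MT-ND6 (0.36 ± 0.04), and their median was 0.01. Neither passed without VTP replicate 1 (0.27 and 0.26), nor MT-ND6 without VTP + OTX replicate 2 (0.31). Glycolysis genes were divided, 12 of 24 lower and 7 higher. LDHA (-1.15 ± 0.04), GPI (-1.08 ± 0.04) and HK2 (-0.79 ± 0.05) fell, while the glucose transporter genes SLC2A1 (1.47 ± 0.06) and SLC2A3 (1.89 ± 0.06) and PKM (1.15 ± 0.04) rose.

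**Figure D3:**
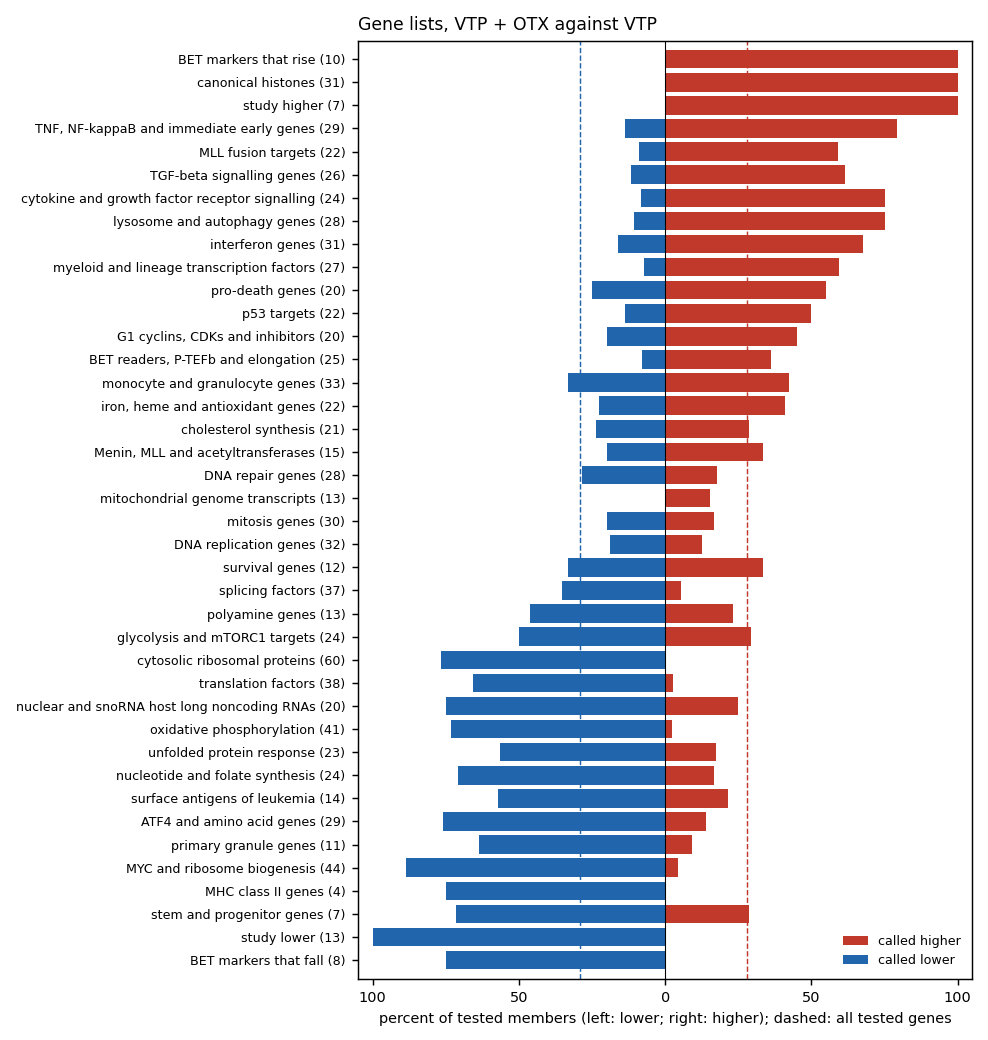
Percent of tested members called higher (red, right) and lower (blue, left) in VTP + OTX against VTP for 40 gene lists, ordered by median log2 fold change with the number of tested members in parentheses, and dashed lines at the shares over all genes tested. BET markers, histones, immediate early, lysosome and cytokine signalling genes reach far to the right, and MYC and ribosome biogenesis, ribosomal protein, ATF4 and respiratory genes to the left.

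Canonical histone genes, whose products package newly made DNA, were higher. Of 45 genes listed, 40 were matched, 31 passed the filter on low counts, and 31 of those were higher with a median of 2.31. Since a gene can pass the filter through the group where it is high, the 21 members with at least 10 counts in both VTP libraries are given apart, and 21 of them were higher. The linker histone gene H1-2 was at 4.53 and 4.87 CPM in the VTP libraries and 37.8 and 31.3 CPM in the VTP + OTX libraries (2.87 ± 0.11). H2BC12, the most abundant core histone gene of the list, was at 5.85 and 6.01 and 22.9 and 21.1 CPM (1.89 ± 0.11), and H3C10 at 0.792 and 0.847 and 12.6 and 10.7 CPM (3.82 ± 0.21). The variant histone gene H2AX (1.02 ± 0.04), which marks DNA breaks once phosphorylated, rose too. Canonical histone transcripts mostly lack a poly(A) tail, and the labels do not say how the RNA was selected for the libraries. The copies of each histone are close in sequence, so single genes of this family are uncertain.

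Histone promoters often carry a TATA box, and the letters TATAAA occurred on either strand in 29 of the 42 histone genes with a window (69%), against 3819 of 27305 genes (14%). Of the 29, 19 were higher and 10 were not tested or not matched. The 3 stretches printed are those of members of different histone classes with the box at its usual place about 30 bases before the start, in capitals. They are chr6:27809969-27810050 on the plus strand, chr1:149886683-149886762 on the minus strand and chr6:26156250-26156328 on the plus strand, and they end at the base before the start.
H3C10: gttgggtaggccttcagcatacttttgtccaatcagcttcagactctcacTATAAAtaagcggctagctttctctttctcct
H2BC21: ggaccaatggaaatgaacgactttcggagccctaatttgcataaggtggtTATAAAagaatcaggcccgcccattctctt
H1-4: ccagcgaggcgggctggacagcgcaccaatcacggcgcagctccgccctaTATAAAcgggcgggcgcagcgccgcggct

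H2BC21 rose from 0.484 and 0.974 to 10.01 and 7.91 CPM (3.60 ± 0.23) and H1-4 from 1.23 and 1.69 to 8.49 and 6.17 CPM (2.31 ± 0.22). Without VTP50469, H1-4 was at 1.69 and 3.59 CPM in the control and 7.02 and 5.98 CPM in the OTX libraries.

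MLL fusion targets, which the Menin inhibitor is meant to lower, were in part higher when OTX015 was added. MEIS1 was at 36.0 and 40.5 CPM in the control libraries, 6.47 and 6.18 in VTP, 49.4 and 45.5 in OTX and 27.2 and 27.0 in VTP + OTX. Both VTP + OTX libraries were above both VTP libraries and below both control libraries, and the log2 fold change of VTP + OTX against VTP was 2.10 ± 0.10, adjusted p = 2.3e-28. PBX3 was at 91.5 and 90.6 CPM in the control libraries, 26.2 and 27.0 in VTP, 101 and 97.6 in OTX and 74.9 and 69.5 in VTP + OTX, a change of 1.44 ± 0.06, adjusted p = 1.3e-30 between VTP and VTP + OTX. HOXA9 was at 34.3 and 35.9 CPM in the control libraries, 27.8 and 25.3 in VTP, 59.1 and 53.8 in OTX and 53.8 and 56.9 in VTP + OTX, and here VTP + OTX was above the control libraries too (1.06 ± 0.07 against VTP). Of 22 tested targets, 13 rose and 2 fell against VTP, with a median of 0.79, and 1 further target, EYA1, had too few counts to be tested. Those that rose included BMI1 (1.98 ± 0.06) of the Polycomb complex, HOXA10 (1.28 ± 0.07), JMJD1C (1.17 ± 0.05), ZNF521 (0.94 ± 0.07), MEF2C (0.83 ± 0.06) and the receptor kinase gene FLT3 (0.76 ± 0.04). LAMP5 (-0.87 ± 0.04) and TCF4 (-1.09 ± 0.13) fell. With both agents in MOLM13, the study reported less H3K27Ac, a chromatin mark, at FLT3, CDK6, MEF2C and MEIS1 enhancers than with the Menin inhibitor alone. RNA of MEIS1, MEF2C and FLT3 went the other way here. The study also reported negative enrichment of a set of HOXA9 and MEIS1 target genes, which was not tested here.

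The Menin inhibitor alone and VTP + OTX are compared with the same 2 VTP libraries, so a low VTP value moves both comparisons in opposite directions, and no relation between them was computed. Levels in the 4 groups show the spread instead. MEF2C was at 159.5 and 162 CPM in the control libraries, 41.8 and 41.8 in VTP, 202 and 187 in OTX and 74.8 and 74.1 in VTP + OTX, so that it stayed below the controls with both agents. FLT3 was at 254 and 266 CPM in the control libraries, 158 and 158 in VTP, 426 and 399 in OTX and 263 and 269.7 in VTP + OTX, above VTP and close to the controls with both agents. ZNF521 was at 93.7 and 98.1 CPM in the control libraries, 23.8 and 22.9 in VTP, 90.3 and 91.0 in OTX and 44.6 and 44.9 in VTP + OTX. SATB1, at 273 and 279 CPM in the control libraries, 148 and 142 in VTP, 404 and 401 in OTX and 150.4 and 144 in VTP + OTX, was close between VTP and VTP + OTX (0.02 ± 0.04, not passing) and high in OTX alone.

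Myeloid genes moved in both directions. Of 33 tested monocyte and granulocyte genes, 14 rose and 11 fell, and 7 more had too few counts to be tested. Of the 28 with at least 10 counts in both VTP libraries, 9 rose and 11 fell, so that 5 of the genes that rose had fewer than 10 counts in a VTP library. S100A9, a calcium-binding alarmin of neutrophils and monocytes, was at 7.99 and 8.26 CPM in the control libraries, 11.0 and 11.3 in VTP, 5.16 and 5.52 in OTX and 114 and 115 in VTP + OTX. Only the VTP + OTX libraries were above 100 CPM, and the log2 fold change against VTP was 3.36 ± 0.07, adjusted p = 1.3e-46. Its partner gene S100A8 was at 1.25 and 1.80 CPM in the control libraries, 2.60 and 2.46 in VTP, 0.239 and 0.281 in OTX and 9.20 and 10.2 in VTP + OTX (1.94 ± 0.17). ANXA1, which encodes the phospholipid-binding annexin A1, was at 8.95 and 9.12 CPM in the control libraries, 36.5 and 38.0 in VTP, 2.63 and 2.76 in OTX and 53.5 and 53.8 in VTP + OTX (0.52 ± 0.07). The integrin genes ITGAM (1.28 ± 0.11) and ITGAX (1.72 ± 0.10), the costimulatory receptor gene CD86 (1.30 ± 0.10) and the NADPH oxidase subunit gene NCF1 (1.42 ± 0.07), which has near-identical pseudogenes, rose as well, as did the chemoattractant receptor genes C5AR1 (4.23 ± 0.47) and FPR1 (2.96 ± 0.35) from below 1 CPM.

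Other genes of the same cells fell. The oxidase subunit gene CYBB went from 25.3 and 26.4 to 1.52 and 1.64 CPM (-4.03 ± 0.15), the macrophage growth factor receptor gene CSF1R from 19.2 and 20.6 to 3.54 and 3.04 CPM (-2.60 ± 0.14) and the lysozyme gene LYZ from 411 and 387 to 118 and 124 CPM (-1.72 ± 0.05). CEBPE (-3.22 ± 0.22), a transcription factor of late granulocytes, and the Fc receptor gene FCGR1A (-2.62 ± 0.14) were lower. Primary granule genes fell in 7 of 11 cases and rose in 1. MPO, the myeloperoxidase of these granules, was at 162 and 159.8 CPM in the VTP libraries and 5.26 and 6.74 CPM in the VTP + OTX libraries. The groups were far apart, with a log2 fold change of -4.74 ± 0.08, adjusted p = 9.9e-53. The proteinase 3 gene PRTN3 went from 8468 and 8611 to 2140 and 2348 CPM (-1.93 ± 0.04), while its neighbours ELANE (-0.22 ± 0.04) and AZU1 (-0.18 ± 0.04), which encode elastase and azurocidin, did not pass and CFD (1.27 ± 0.04), the complement factor D gene of the same region, rose.

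Myeloid transcription factors were mostly higher, with 16 of 27 tested risen and 2 fallen. Among the 26 with at least 10 counts in both VTP libraries, 15 rose and 2 fell. KLF2, a zinc finger factor of quiescent cells, was at 6.60 and 6.60 CPM in the VTP libraries and 104.8 and 87.3 CPM in the VTP + OTX libraries (3.86 ± 0.09). The inhibitors of DNA binding ID2 (2.39 ± 0.06) and ID1 (1.55 ± 0.17), FOXO1 (2.35 ± 0.17) and KLF4 (1.14 ± 0.09), and the granulocyte and monocyte factors CEBPA (0.70 ± 0.04), CEBPB and CEBPD (0.71 ± 0.04) rose, and SPI1 (-0.48 ± 0.04) and IRF8 (-0.55 ± 0.04), the factors of the monocyte lineage, fell. Of 7 tested stem and progenitor genes, 5 fell, with the surface receptor gene CD244 at 24.2 and 25.1 and 3.29 and 4.54 CPM (-2.65 ± 0.13), and 2 rose, LMO2 (0.69 ± 0.04) and SOX4 (0.99 ± 0.04), while 11 others, CD34 and KIT among them, had too few counts to be tested. Among 14 tested surface antigens of leukemia 8 fell and 3 rose. CD33, a target of antibody drugs, went from 128 and 134 to 81.9 and 85.1 CPM (-0.65 ± 0.05), CD38 (-1.02 ± 0.11) and LILRB4 (-0.75 ± 0.05) fell, CD47 (0.09 ± 0.06) and CD70 (0.23 ± 0.04) did not pass, and IL1RAP (1.10 ± 0.07) and CD44 (0.48 ± 0.04) rose along with FLT3.

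Survival and death genes did not all move one way. Of 12 survival genes 4 rose and 4 fell. MCL1, a short-lived antiapoptotic protein, was at 173 and 172 CPM in the VTP libraries and 356 and 349 CPM in the VTP + OTX libraries (1.03 ± 0.04), opposite to BCL2, and PIM1 (1.76 ± 0.06) rose while BCL2L1 (-0.57 ± 0.11), which encodes BCL-xL, fell. Of 20 tested death genes 11 rose and 5 fell. Of the genes of BH3-only proteins, BMF (1.38 ± 0.06), BCL2L11 and BBC3 (0.60 ± 0.06) rose and PMAIP1 (-0.51 ± 0.10) and BID (-0.39 ± 0.05) fell. The initiator caspase gene CASP9 (1.05 ± 0.10) rose, and BAX (-0.27 ± 0.04) did not pass. Of 22 tested p53 targets 11 rose and 3 fell, with CDKN1A, TP53INP1 (1.99 ± 0.12) and BTG2 (1.96 ± 0.09) rising and MDM2 (-0.23 ± 0.06), the best known feedback target, not passing.

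Among cell cycle genes, cyclins and kinases of the G1 step fell in part and their inhibitors rose. CCND2 went from 112 and 118 to 30.2 and 26.6 CPM (-2.02 ± 0.06), CCND1 (-2.55 ± 0.14) and CDK4 (-1.14 ± 0.05) fell, and the third D cyclin gene, CCND3, rose from 302 and 308 to 745 and 694 CPM (1.24 ± 0.04). The inhibitor genes CDKN1B (0.73 ± 0.05), CDKN2C (0.95 ± 0.05) and CDKN2D (1.40 ± 0.08) rose too, so that 9 of 20 tested genes of the list were higher and 4 lower. Among the 19 with at least 10 counts in both VTP libraries, 8 rose and 4 fell. Of 32 DNA replication genes 4 rose and 6 fell, and of 30 mitosis genes 5 rose and 6 fell, both below the shares over all genes tested. MCM4 (-0.04 ± 0.04), TOP2A (0.02 ± 0.04) and CDK1 (0.18 ± 0.06) did not pass, while MKI67 (0.65 ± 0.04) rose and UBE2C (-1.25 ± 0.06) fell. Of 28 DNA repair genes 8 fell and 5 rose, with ATR (-0.81 ± 0.06) and FANCD2 (-0.54 ± 0.06) lower.

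Splicing factors showed 13 of 37 lower and 2 higher. Of the 13, 8 were SNRP genes of small nuclear ribonucleoproteins, such as SNRPF (-1.17 ± 0.06), SNRPE (-1.10 ± 0.06) and SNRPD1 (-0.88 ± 0.05), and the kinase gene CLK1 (0.75 ± 0.06) and SRSF5 (0.56 ± 0.04) were the 2 that rose. Among 20 long noncoding RNAs, 15 fell and 5 rose. Those that fell were hosts of small nucleolar RNAs, such as SNHG16 (-1.50 ± 0.05) and GAS5 (-0.47 ± 0.05), along with CYTOR (-0.78 ± 0.31), whose adjusted p in the quasi-likelihood test was between 0.05 and 0.28 without VTP replicate 1 or either VTP + OTX replicate. Those that rose were the nuclear RNAs NEAT1, from 31.9 and 36.2 to 228 and 222 CPM (2.72 ± 0.07), and MALAT1, from 330.5 and 386 to 1469 and 1553 CPM (2.08 ± 0.05), together with TUG1 (0.86 ± 0.06), NORAD (0.73 ± 0.04) and KCNQ1OT1 (0.41 ± 0.18). KCNQ1OT1 passed with the 8 MOLM13 libraries in the fit, and did not pass when any 1 of the 4 compared libraries was left out (adjusted p between 0.052 and 0.12 in the quasi-likelihood test) or in DESeq2 (adjusted p = 0.13).

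Signalling genes were mostly higher. Of 29 tested TNF, NF-kappaB and immediate early genes 23 rose and 4 fell. Of the 27 with at least 10 counts in both VTP libraries, 21 rose and 4 fell. IER3 went from 7.13 and 7.03 to 96.8 and 85.0 CPM (3.68 ± 0.09) and EGR1 from 5.19 and 3.98 to 32.7 and 27.7 CPM (2.72 ± 0.15), TNF itself from 77.5 and 72.9 to 178 and 181 CPM (1.25 ± 0.05), and the inhibitor gene NFKBIA (0.82 ± 0.06) rose, while CXCL8 (-2.49 ± 0.20), the neutrophil attractant interleukin 8, and TNFAIP3 (-1.07 ± 0.06), a brake on NF-kappaB, fell. Of 31 tested interferon genes 21 rose and 5 fell, or 17 and 5 of the 26 with at least 10 counts in both VTP libraries. SLFN5, an interferon-inducible Schlafen gene, was at 1.58 and 1.40 CPM in the VTP libraries and 30.1 and 27.2 CPM in the VTP + OTX libraries (4.26 ± 0.15), IRF7 at 11.2 and 9.95 and 55.0 and 47.3 CPM (2.28 ± 0.09), and STAT2 (1.00 ± 0.06) and IFIT2 (2.62 ± 0.37) rose, whereas TRIM22 fell (-2.99 ± 0.09). ISG15, a widely used interferon marker, was at 11.0 and 9.65 CPM in the VTP libraries and 12.5 and 10.3 CPM in the VTP + OTX libraries (0.14 ± 0.12) and did not pass, and 9 further interferon genes, IFIT1 and IFI44L among them, had too few counts to be tested.

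Of 26 tested TGF-beta signalling genes 16 rose and 3 fell. Of the 25 with at least 10 counts in both VTP libraries, 15 rose and 3 fell. The ligand gene TGFB1 (1.28 ± 0.04), the receptor genes TGFBR1 (1.21 ± 0.05) and TGFBR2 (1.23 ± 0.06), the mediator genes SMAD3 (0.83 ± 0.08) and SMAD4 (0.76 ± 0.07) and the inhibitor gene SMAD7 (1.45 ± 0.11) rose together, and the activin gene INHBA fell from 16.6 and 18.9 to 0.961 and 0.468 CPM (-4.65 ± 0.19). Of 24 tested genes of cytokine and growth factor receptor signalling 18 rose and 2 fell. The feedback inhibitors SOCS1 (1.86 ± 0.10), SOCS3 (1.43 ± 0.14) and DUSP6 (2.14 ± 0.08) and the kinase gene JAK1 (1.53 ± 0.05) rose, the receptor genes IL6R (-0.71 ± 0.04) and CSF2RB (-0.71 ± 0.09) fell, and CISH, a STAT5 target, was at 0.02 ± 0.06. MHC class II genes were low, with CIITA, their master regulator, falling from 6.51 and 6.77 to 1.52 and 1.31 CPM (-2.23 ± 0.21), and 6 of 10 had too few counts to be tested.

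Lysosome and iron genes rose in part. Of 28 tested lysosome and autophagy genes 21 rose and 3 fell. The autophagy receptor gene SQSTM1 was at 79.1 and 85.1 CPM in the VTP libraries and 298 and 256 CPM in the VTP + OTX libraries (1.75 ± 0.05), and CTSB (1.29 ± 0.04), NEU1 (1.44 ± 0.05), the initiating kinase gene ULK1 (1.34 ± 0.05) and the regulator gene TFE3 (0.65 ± 0.06) rose, while CTSS (-1.08 ± 0.06), a protease of antigen presentation, fell. Of 22 tested iron, heme and antioxidant genes 9 rose and 5 fell. HMOX1, the enzyme that breaks down heme, was at 1.67 and 0.762 CPM in the VTP libraries and 20.5 and 19.6 CPM in the VTP + OTX libraries (4.05 ± 0.18), the ferritin genes FTL (1.47 ± 0.04) and FTH1 (1.32 ± 0.04) and the NRF2 target NQO1 (1.77 ± 0.07) rose, and the transferrin receptor gene TFRC (-0.72 ± 0.04) and the cystine transporter gene SLC7A11 (-2.06 ± 0.17) fell. Of 21 tested cholesterol genes 6 rose and 5 fell, close to the shares over all genes.

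Beyond the genes named so far, the largest rises among genes at 5 CPM or more included CEMIP2, from 0.792 and 0.635 to 15.6 and 13.8 CPM (4.36 ± 0.19), the chaperone gene CLU (4.39 ± 0.25), MAP1A (4.18 ± 0.19) and MYO6 (4.09 ± 0.19), which encode a microtubule-associated protein and an unconventional myosin, and TP53INP2, a factor of autophagy, from 4.36 and 4.995 to 70.2 and 64.9 CPM (3.85 ± 0.10). FGD6 (4.22 ± 0.29), BCAR1 (4.08 ± 0.24), DOCK9 (3.95 ± 0.29) and SPSB1 (4.05 ± 0.31) rose from below 1 CPM, and NXN (3.87 ± 0.11) and MAFA (4.14 ± 0.33) completed the group with the genes named above. The largest fall was that of TIFAB, an inhibitor of TRAF6 signalling, with 753 counts in VTP and 1 in VTP + OTX. That is 669-fold lower with a 95% counting interval from 120-fold to 26450-fold. TFEC (-6.11 ± 0.28), a factor of macrophages, the membrane genes MS4A6A (-6.09 ± 0.13) and MS4A3 (-4.82 ± 0.12), SLAMF8 (-5.81 ± 0.16), the homeobox gene CUX2 (-5.52 ± 0.19), TNFRSF8 (-4.83 ± 0.10), which encodes CD30 and is among the 8 surface antigens that fell, and CSPG4 (-4.83 ± 0.10), which encodes the NG2 antigen seen on MLL-rearranged leukemia, fell by 4.78 or more on the log2 scale, as did DDN (-5.20 ± 0.11), ERBB4 (-4.91 ± 0.31), the amino acid transporter gene SLC38A5 (-4.78 ± 0.08) and the noncoding RNA CCDC26 (-4.81 ± 0.26).

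Gains and losses in CPM, which is not corrected for transcript length, were ranked among the nuclear genes that passed. The largest gains were those of FTL, from 3716 and 3711 to 10790 and 9757 CPM, of the cytoskeletal genes FLNA, from 1289 and 1294 to 3442 and 3154 CPM (1.35 ± 0.04), ACTG1, from 5479 and 5607 to 7952 and 7408 CPM (0.47 ± 0.03), and MYH9 (1.01 ± 0.04), and of PKM. The largest losses were those of PRTN3, RPL8, CALR, the cytosolic chaperone gene HSP90AB1, from 3235 and 3322 to 1991 and 1973 CPM (-0.73 ± 0.03), and RPL13A (-0.56 ± 0.03). Reads of such genes can be shared with near-identical pseudogenes, so their levels carry that uncertainty.

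Direction differed between classes of gene span. Among protein-coding genes over 100 kb long on GRCh38, 43.2% of 1960 were higher and 20.3% lower, with a median of 0.23. Of the 2174 genes of 2 to 10 kb, 23.3% were higher and 40.6% lower, with a median of -0.22. The shortest class, under 2 kb, did not continue this order, with 32.2% of 233 higher and 34.3% lower and a median of -0.10. Without the listed histones, 23.7% of the remaining 207 were higher and 38.6% lower, with a median of -0.22. For the classes over 100 kb and of 2 to 10 kb, the medians for OTX against control were 0.21 and -0.21. Of 467 pseudogenes tested, 8.78% were higher and 24.0% lower.

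How far the Menin inhibitor changed the response to OTX015 was read from the OTX and control libraries, which share no library with the comparison above. Without VTP50469, OTX015 changed 6911 genes (48.1%), 3368 higher (23.5%) and 3543 lower (24.7%), with a median absolute log2 fold change of 0.40. Of the 4012 genes higher with VTP50469 present, 2629 were also higher without it, 65.5% of the former and 78.1% of the latter list, and for the lower genes the number was 2814, or 67.5% and 79.4%. Opposite calls were few, 70 genes higher with and lower without VTP50469 and 20 the reverse. Across genes, which are not independent replicates, Pearson's r between the 2 sets of log2 fold changes was 0.79 and Spearman's rho 0.78 over the 14360 genes. Genes share their length, base composition and counting between the 2 comparisons, so the values are a description.

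**Figure D4:**
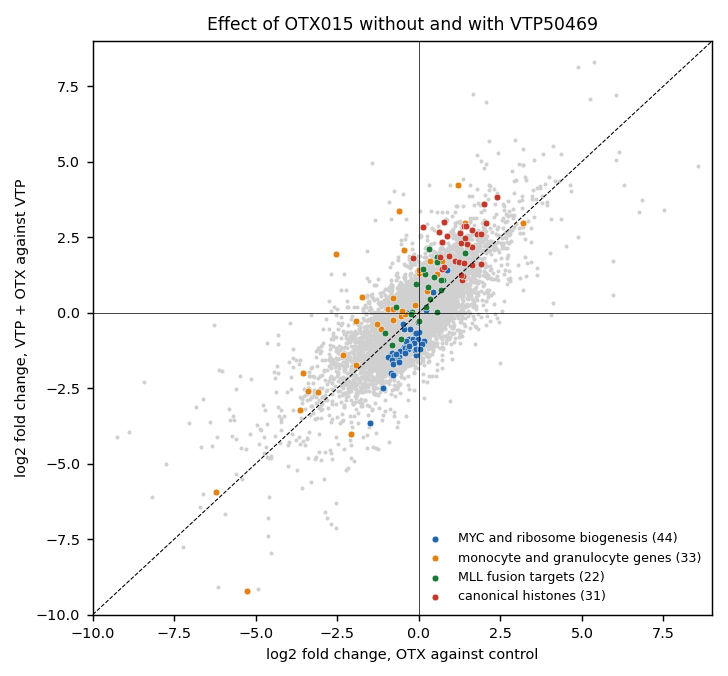
Log2 fold change by OTX015 without VTP50469 (horizontal axis) and with it (vertical axis) for all tested genes in grey and members of 4 lists in colour, with the dashed line marking equal effects. Most genes of MYC and ribosome biogenesis lie below the line, most MLL fusion targets and monocyte and granulocyte genes lie above it, and r over all genes is 0.79.

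The difference between the 2 effects was tested as an interaction, the log2 fold change by OTX015 with VTP50469 minus that without. It passed for 3480 genes (24.2%), 1656 with a positive value (11.5%) and 1824 with a negative one (12.7%). Of the 4171 genes that fell, 1407 (33.7%) had a negative interaction, meaning a larger fall with VTP50469, and 197 a positive one. Of the 4012 that rose, 1117 (27.8%) had a positive interaction and 45 a negative one. The interaction uses the same VTP and VTP + OTX libraries that gave these calls. Genes chosen as lower therefore lean toward negative values, and genes chosen as higher toward positive ones. These counts by direction cannot show that VTP50469 enlarged the effect.

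MYC and most of its list lay on the negative side. MYC was at 764 and 773 CPM in OTX against 1607 and 1670 in the controls, a log2 fold change of -1.09 ± 0.04, and the larger fall with VTP50469 gave an interaction of -1.42 ± 0.05, adjusted p = 1.2e-31. In the list of MYC and ribosome biogenesis, 36 of 44 genes had a negative interaction and 2 a positive one, and the list's median was -0.36 without and -1.12 with VTP50469. CAD (-0.10 without, -1.42 with), NOLC1 (-0.11 and -1.24) and POLR1A (0.10 and -1.05) did not pass without VTP50469. Of 24 nucleotide and folate genes 14 were negative and 0 positive, and of 29 ATF4 and amino acid genes 12 and 2. Ribosomal protein genes behaved otherwise, with 1 negative value and 0 positive values among 60 and medians of -0.48 without and -0.45 with VTP50469. For oxidative phosphorylation the numbers were 4 and 0 of 41.

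Monocyte and granulocyte genes and MLL targets lay mainly on the positive side. Among 33 tested monocyte and granulocyte genes 22 had a positive interaction and 1, CYBB (-1.95 ± 0.25), a negative one, and their median was -0.79 without and 0.12 with VTP50469. S100A9 (3.96 ± 0.15, adjusted p = 1.1e-31) and S100A8 (4.48 ± 0.43, adjusted p = 2.3e-13) fell with OTX015 alone and rose when it was added to VTP50469. ANXA1 (2.27 ± 0.16) had the same opposite directions, at -1.74 without and 0.52 with VTP50469. For MLL targets 12 of 22 were positive and 1, SATB1, negative, with medians of 0.24 and 0.79, and MEIS1 was at 1.79 ± 0.12, adjusted p = 3.4e-19. Interferon genes were positive in 19 of 31 cases and negative in 0, with medians of 0.02 and 0.63, lysosome and autophagy genes in 16 of 28 and 0, myeloid transcription factors in 13 of 27 and 0, and canonical histones in 15 of 31 and 0. BET readers and P-TEFb genes, by contrast, had 0 positive and 2 negative values among 25. At least 10 counts in both VTP libraries were held by 28 of 33 monocyte and granulocyte genes and 26 of 31 interferon genes. For myeloid transcription factors the number was 26 of 27 and for canonical histones 21 of 31. The remaining members can have passed the filter through a group where they are high, and interaction counts without them were not made. The 10 markers that rise with BET inhibition had 7 positive values and 0 negative ones, with medians of 1.71 without and 2.43 with VTP50469. Of the 7, 4 are canonical histone genes, such as H2BC12 (0.96 ± 0.16), and SAT1 (0.41 ± 0.09) is another. HEXIM1 (0.22 ± 0.07), BRD2 (0.02 ± 0.05), KLF2 (0.07 ± 0.15) and CCR2 (0.30 ± 0.27) did not pass.

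**Figure D5:**
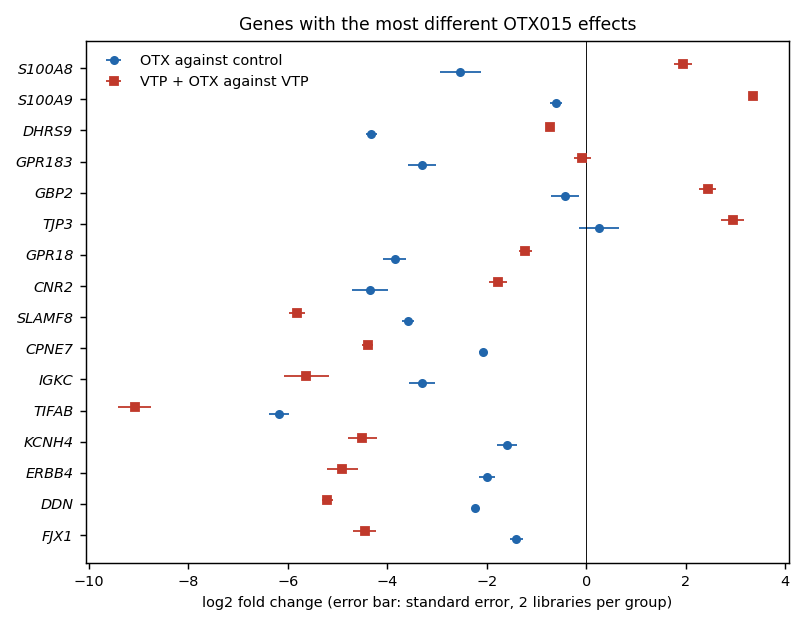
Log2 fold change by OTX015 without VTP50469 (blue circles) and with it (red squares) for the 8 genes with the most positive and the 8 with the most negative interaction, with bars for the standard error and 2 libraries per group. S100A8 and S100A9 lie on opposite sides of 0, DHRS9 and GPR183 fall far without VTP50469 and little or not at all with it, and FJX1, DDN and ERBB4 fall much further with it. TIFAB held 1 count and IGKC 3 counts in VTP + OTX, so their fitted values are uncertain. S100A8 was near the floor of 3 counts per library in OTX, so its value without VTP50469 is uncertain too.

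Among the most different genes, DHRS9, a retinol dehydrogenase, was at 46.5 and 46.7 CPM in the control libraries, 51.4 and 52.7 in VTP, 2.63 and 2.01 in OTX and 30.3 and 32.1 in VTP + OTX. OTX015 alone lowered it by 4.33 on the log2 scale and OTX015 with VTP50469 by 0.74, an interaction of 3.59 ± 0.14, adjusted p = 1.1e-30. GPR183, an oxysterol receptor that guides immune cells, was at 5.49 and 4.45 CPM in the control libraries, 5.72 and 5.46 in VTP, 0.335 and 0.654 in OTX and 4.398 and 6.13 in VTP + OTX, a fall without VTP50469 and a value of -0.08 ± 0.17 with it. The interferon-inducible GTPase gene GBP2 was at 2.07 and 1.39 CPM in the control libraries, 2.11 and 2.29 in VTP, 1.10 and 1.45 in OTX and 12.4 and 11.5 in VTP + OTX. It was above 10 CPM in VTP + OTX alone, with an interaction of 2.87 ± 0.33, adjusted p = 9.0e-11. On the other side, FJX1 was at 13 and 14.01 CPM in the control libraries, 10.3 and 10.1 in VTP, 4.396 and 5.80 in OTX and 0.455 and 0.468 in VTP + OTX, with an interaction of -3.05 ± 0.31, adjusted p = 1.2e-12, and DDN, which encodes dendrin, at 85.4 and 88.2 CPM in the control libraries, 68.2 and 68.1 in VTP, 18.8 and 18.1 in OTX and 1.47 and 2.20 in VTP + OTX, with -2.97 ± 0.16, adjusted p = 1.7e-24. Both were lowest in VTP + OTX, with no overlap with any other group.

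The genes that the study named differed among themselves in this respect. TERT was at 38.0 and 40.1 CPM in the control libraries and 14.4 and 13.5 CPM in OTX, a log2 fold change of -1.49 ± 0.08, and its interaction was -2.19 ± 0.16, adjusted p = 9.9e-18. SLC19A1 (-0.88 ± 0.07), KAT2A (-0.81 ± 0.08), BCL2 (-0.63 ± 0.07) and CDK4 (-0.57 ± 0.07) also had negative interactions, so that OTX015 lowered them more where VTP50469 was present. CD244 (1.73 ± 0.27) had a positive one, with a log2 fold change of -4.38 without and -2.65 with VTP50469. HMOX1 (1.89 ± 0.36), ITGAM (0.72 ± 0.20) and BCL2L11 (0.40 ± 0.08) rose more where VTP50469 was present, though for ITGAM the interaction was 0.60 and missed the threshold without control replicate 2 (adjusted p = 0.062 in the quasi-likelihood test). MPO (-0.21 ± 0.16), GATA2 (-0.01 ± 0.10), IL7R (-0.06 ± 0.39), LAMP5 (-0.32 ± 0.05) and CDKN1A (0.01 ± 0.06) did not pass. For MPO, both effects were close, -4.53 without and -4.74 with VTP50469.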

How the data were processed

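The deposited file holds whole-number counts of reads per gene, made by the authors, for 58037 Ensembl gene IDs in 18 libraries. The sources differ on how it was made. The submitters' processing notes name STAR and hg38, whereas the study's methods name TopHat2 on hg38, Cufflinks and ERCC spike-in controls, of which the table holds 0 IDs. Which program made the counts, the strand setting and the RNA selection step were not stated in the sources used.

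Groups come from the labels, 2 libraries each for MOLM13 control, VTP, OTX and VTP + OTX. From the counts, edgeR 4.0.16 (R 4.3.3) was run on the 8 MOLM13 libraries with TMM scaling, its expression filter and the quasi-likelihood test, and p-values were adjusted by Benjamini-Hochberg over all 14360 genes tested. Genes were called where the adjusted p was under 0.05 and the fold 1.25 or larger in either direction. The standard error is the log2 fold change divided by the root of the F statistic. The contrasts were VTP + OTX against VTP, OTX against control, and their difference. The steps were tested on simulated counts.

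The study's methods describe limma with quantile normalization and biologic replicates. Alternatives were other scalings and filters, DESeq2 1.42.0, limma 3.58.1 (voom with quantile normalization), a test against the 1.25-fold limit (glmTreat), other sets of libraries, the replicate number as a block, and leaving out each library.

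The comparison, its members and the gene lists were chosen with earlier results of these data known. Named are list members, the 15 largest rises and falls (mean of at least 5 CPM in the higher group, groups not overlapping), the 8 most positive and negative interactions, and the 5 largest gains and losses in CPM among nuclear genes. Counting intervals and the floor of 3 counts, 0.127 to 0.155 CPM per library, cover counting error only. Genes with near-identical copies (histones, ribosomal proteins, FTL, FTH1, ACTG1, EEF1A1, NCF1) and overlapping or antisense genes are uncertain. Positions and promoter windows are RefSeq's for GRCh38.p14, matched by symbol.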

Additional observations from a re-analysis of the deposited data

Results flagged for a closer look

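The effect of OTX015 differed between cells with and without VTP50469 for 3480 genes, by the interaction term of edgeR's quasi-likelihood test over the 8 MOLM13 libraries with 2 libraries per group. Each value below is the log2 fold change by OTX015 with VTP50469 minus that without.

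On the positive side, the differences were 4.48 for S100A8, 3.96 for S100A9, 3.59 for DHRS9, 3.22 for GPR183, 2.87 for GBP2, 2.69 for the tight junction gene TJP3, 2.63 for the receptor gene GPR18 and 2.57 for the cannabinoid receptor gene CNR2. These genes did not share 1 pattern. S100A8 and S100A9 fell without and rose with VTP50469, GBP2 and TJP3 rose with it and did not pass without it, and DHRS9, GPR18 and CNR2 fell in both settings, by less with VTP50469. The size of the S100A8 difference is uncertain, since this gene was near the floor of 3 counts per library in OTX.

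On the negative side, the differences were -3.05 for FJX1, -2.97 for DDN, -2.91 for ERBB4, -2.90 for the potassium channel gene KCNH4, -2.90 for TIFAB, -2.33 for the immunoglobulin gene IGKC, -2.32 for CPNE7 and -2.23 for SLAMF8. All 8 genes fell in both settings and fell further with VTP50469. IGKC held 180 counts in VTP and 3 in VTP + OTX, 53.3-fold lower with a 95% counting interval from 17.9-fold to 261-fold, and it lost its call without OTX replicate 1 (-1.51, adjusted p = 0.22 in the quasi-likelihood test) or VTP + OTX replicate 1 (-1.98, adjusted p = 0.093 in the same test). TIFAB lost its call without OTX replicate 2 (-2.35) or VTP + OTX replicate 1 (-2.09), and the other 14 of these 16 genes kept theirs in each fit with 1 library left out.

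Among the genes that the study chose on these samples, which are therefore no independent evidence, the differences were -2.19 for TERT, -1.42 for MYC, -0.88 for SLC19A1, -0.81 for KAT2A, -0.63 for BCL2 and -0.57 for CDK4. They were 1.89 for HMOX1, 1.73 for CD244, 0.72 for ITGAM and 0.40 for BCL2L11.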

How the results depend on the processing

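Of the 63 counts of called genes under alternative settings, 62 stayed within 1.5 times the reported count. VTP + OTX against VTP gave between 6739 called genes with a test against the 1.25-fold limit (glmTreat) and 8414 without a filter on low counts, against 8183 reported, and DESeq2 gave 7420. Leaving out 1 of the 4 libraries in turn gave 7825 to 7911 called genes, 3812 to 3909 higher and 3977 to 4040 lower. For the interaction, glmTreat gave 1631 genes against 3480 reported, DESeq2 2722, and the fits without 1 library 3160 to 3472. With all 18 libraries in the fit, 1579 of 2684 interaction calls (58.8%) were positive, against 47.6% of those reported. The median log2 fold change of all genes stayed between -0.02 and 0.03 under every scaling tried. Each scaling sets levels relative to the rest of the library, so this median cannot show a shift shared by most genes. With the replicate number as a block, 8125 genes were called in the first comparison and 3379 in the interaction. Deviations of same-numbered libraries correlated between -0.04 and 0.04 across the 6 pairs of groups. Counting error alone can keep such values near 0, so they do not decide whether the numbers pair the samples.

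Among 269 named genes no called value changed direction under these alternatives. RRN3 passed at -0.36 without VTP replicate 2. Under glmTreat in edgeR, BID, CYTOR, KCNQ1OT1, MT-CYB, MT-ND6, NELFA and the interactions of BCL2L11, ITGAM, SAT1 and TIFAB did not pass (adjusted p from 0.050 to 0.29). Under DESeq2, CD93, CYTOR, KCNQ1OT1 and the interaction of TIFAB did not (adjusted p from 0.066 to 0.13), and with all 18 libraries KCNQ1OT1, MT-CYB, MT-ND6 and the interaction of IGKC did not (adjusted p from 0.068 to 0.14 in edgeR's quasi-likelihood test). KCNQ1OT1 also missed the threshold without a filter, NELFA without scaling and MT-CYB under limma. Under these alternatives 113 list medians, in 37 lists, moved by more than their spread between libraries and 547 did not. The medians of mitochondrial genome transcripts, mitosis genes and cholesterol synthesis genes changed sign, the last from 0.07 to -0.08 without VTP + OTX replicate 2. The largest shift, 0.51, was that of the epithelial and stromal markers, of which 1 gene was tested. The cause of these changes was not tested. With 2 libraries per group, each fit without 1 library leaves a lone sample that is assumed to vary like the other groups.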
